A study of Mus musculus with 7 samples.

Results

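Axin2, Rnf43, Znrf3, Nkd1, Notum, Lef1 and Sp5, which β-catenin switches on in many tissues, and Lgr4, Lgr5 and Lgr6, the receptors for R-spondins, were read from RNA sequencing counts of damaged mouse utricles. These 10 genes were taken by name, as a readout of β-catenin activity, from the 32285 genes counted, and all 10 were found. The utricle is a balance organ of the inner ear, and its sensory patch holds hair cells surrounded by supporting cells. Utricles of wild-type (WT) C57BL/6J mice at postnatal day 2 were kept as explants in serum-free medium and damaged with 2 mM gentamicin, an antibiotic that kills hair cells, for 24 h. In the Gent+Fos OE group (4 libraries), the explants also received AAV-PHP.eB carrying mouse Fos behind the CMV promoter, which is active in most cell types, at a dilution of 1 in 50 for 48 h. For the Gent group (3 libraries), the labels name gentamicin alone while the text of the study names a control virus, and the names given to their counts carry letters (sh) that can stand for shRNA. Which virus, if any, these explants received is not settled, and each fold change is against these libraries as labelled. Explants were collected on day 5 after injury, and RNA was extracted from groups of 12 utricles, which the labels and the methods do not tie to single libraries in the same words.

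In canonical Wnt signaling, Wnt ligands bind Frizzled and LRP receptors, the complex that destroys β-catenin is held off, and β-catenin enters the nucleus to act with TCF and LEF factors. Several of the genes it switches on dampen the same pathway, so their transcripts are often used to judge whether the pathway is active. RNF43 and ZNRF3 are membrane ubiquitin ligases that take Frizzled receptors off the cell surface, and R-spondins bound to LGR receptors clear these ligases and so strengthen the signal. In the inner ear, Lgr5 marks supporting cells of the newborn cochlea that can form hair cells when the pathway is active.

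In total, none of the 10 genes passed the limits of the comparison, and 8 of the 10 fold changes were above 0. To be called, a gene needed a Benjamini-Hochberg adjusted p below 0.01 and a log2 fold change beyond 0.25 in size, both from the quasi-likelihood test of edgeR. Over all 17155 genes tested, 71 passed them, which is 0.414% of the genes. DESeq2, which called 3.17% of its genes at these limits, also called 0 of the 10. Lgr6, Znrf3 and Axin2 were the 3 members with an unadjusted edgeR p under 0.05, all of them with higher values in Gent+Fos OE. This is 30% of the members, where 24.5% of all tested genes had an unadjusted p under 0.05 (11.1% higher and 13.4% lower). The same 3 members showed no overlap between the groups, against 23.4% of all tested genes (11.3% higher and 12.2% lower). The median log2 fold change of the 10 members was 0.24, that of all tested genes was -0.00075, and 49.9% of tested genes lay above 0.

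**Figure D1:**
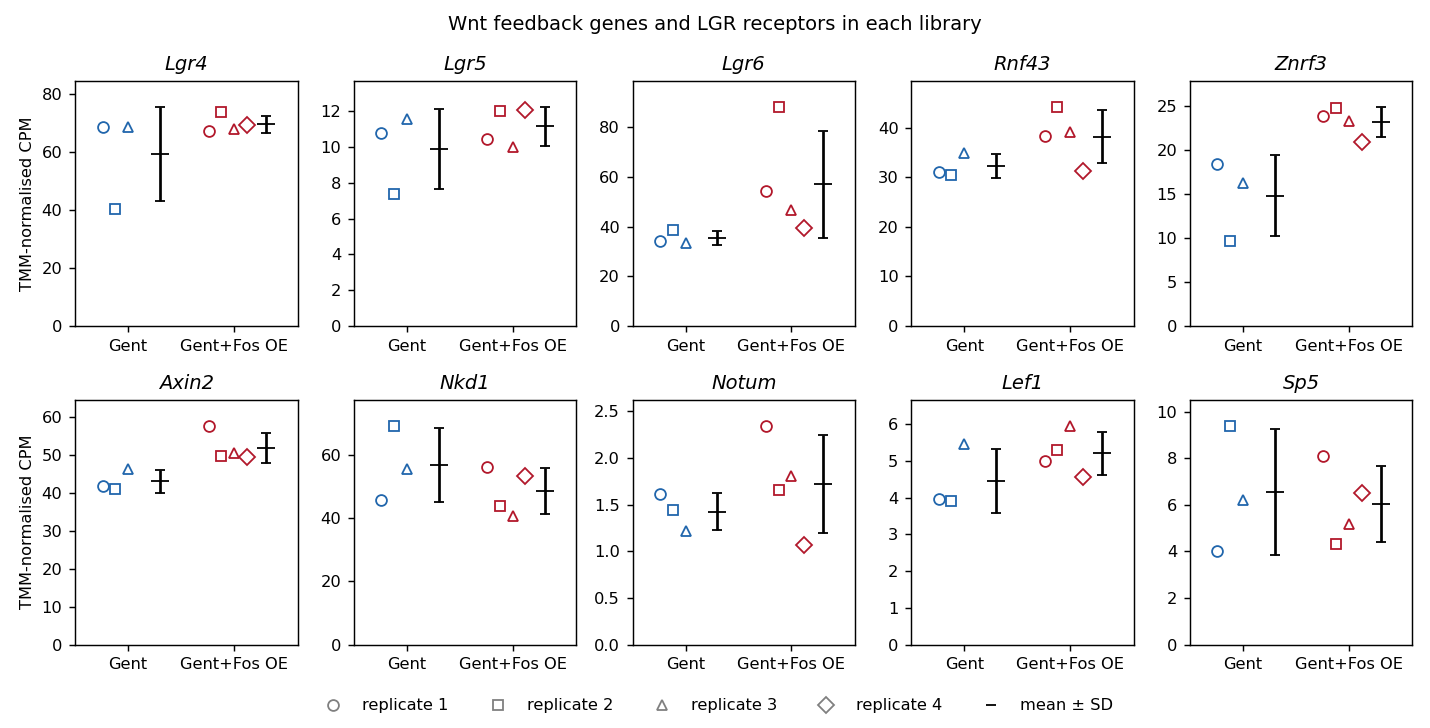
TMM-normalised CPM of each gene (vertical axes, starting at 0) in the 3 Gent libraries (blue) and the 4 Gent+Fos OE libraries (red), with symbols for replicates and black bars for the mean ± SD. For Lgr6, Znrf3 and Axin2 the groups are fully separated, and Gent replicate 2 is the lowest library for Lgr4, Lgr5 and Znrf3 and the highest for Nkd1 and Sp5.

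Total counts ran from 27879889 to 34335214 per library. Fos itself ran from 148.8 to 167.0 CPM where it was overexpressed and from 34.6 to 40.6 CPM in Gent, and edgeR called it. The Fos values followed the labels in direction but do not show what the Gent explants received, since a virus against Fos in Gent would also give this order. CPM here are counts relative to library size, scaled with TMM factors. Markers of hair cells (Myo6, Otof) and of supporting cells (Otog, Tecta) were abundant, and so was the mesenchymal gene Col1a2, so the libraries hold more than the sensory patch. Gent replicate 2 stood apart. Its share of mitochondrial counts was 2.857% (1.743% to 1.988% in the others), and its deviation from the mean of the libraries went down with gene length across genes (Spearman's rho = -0.516). In this trend, rho was 0.150 to 0.363 in the 4 Gent+Fos OE libraries and 0.174 and -0.217 in Gent replicates 1 and 3, so the groups overlapped, and its part in the results was not tested beyond the length correction. The exons of 8 of the 10 members were together longer than 4084 bp, the median over tested genes. Gent replicate 2 was the lowest of the 7 libraries for 6 members and the highest for 2, so each member's value without it is given.

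Gene starts were compared with RefSeq promoter windows on GRCm38.p6, which is the mm10 build of the counts. Each window covers 250 bases before to 50 after a start, and 11 windows matched 7 members. Lgr5, Znrf3 and Notum had no entry. The core letters bound by TCF and LEF factors were searched on both strands as CTTTGAA and its variant CTTTGAT, and likewise as CTTTGTA and its variant CTTTGTT. They were found in 16.9% of all 32851 windows. Among the members, the window of Sp5 held 2 matches and 1 of the windows of Lef1 held 1. The AP-1 letters TGANTCA, which c-Fos binds with a Jun partner, were in 7.81% of all windows and in 0 of the 11, and the related TGACGTCA was in 1.79% and 0 of the 11. A match is a description of letters, and the absence of one says only that these letters are not in this short window.

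Shown here, 5′ to 3′ on the strand of the gene, are the stretches of Sp5 and Lef1 that hold the TCF/LEF letters, in capitals, and, for comparison, the last 100 bases before the starts of Axin2 and Lgr6, which hold none. The Sp5 stretch is chr2:70474691-70474830 (plus strand), that of Lef1 is chr3:131156124-131156183 (plus strand, before a start inside the gene), that of Axin2 is chr11:108920249-108920348 (plus strand) and that of Lgr6 is chr1:135105277-135105376 (minus strand). None of them touches an exon of its gene in the annotation used for counting.
Sp5: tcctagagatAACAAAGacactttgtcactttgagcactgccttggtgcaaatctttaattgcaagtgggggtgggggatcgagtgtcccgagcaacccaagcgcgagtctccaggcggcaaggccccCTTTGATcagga
Lef1: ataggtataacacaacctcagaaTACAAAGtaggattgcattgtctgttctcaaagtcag
Axin2: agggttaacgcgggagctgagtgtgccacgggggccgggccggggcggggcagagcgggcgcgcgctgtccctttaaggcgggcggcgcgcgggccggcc
Lgr6: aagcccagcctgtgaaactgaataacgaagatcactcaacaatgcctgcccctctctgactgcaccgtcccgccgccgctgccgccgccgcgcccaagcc
The windows of Lgr4, Nkd1 and Rnf43 held no TCF/LEF letters either.

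Expression differed widely among the members when CPM were divided by exon length. Per kilobase of exon, Nkd1 and Lgr4 had the highest medians over the 7 libraries (11.65 and 11.63 CPM per kb), followed by Axin2 (8.96), Lgr6 (5.73) and Rnf43 (5.33). Sp5 (2.96) and Znrf3 (2.64) were lower, and Lgr5 (1.05), Notum (0.668) and Lef1 (0.567) were the lowest. Neighbours in this order overlapped in range across libraries, except that every library of Rnf43 lay above every library of Sp5, and every library of Znrf3 lay above every library of Lgr5. Lgr5, the best known of the receptors, was thus measured at a far lower level than Lgr4 in both groups, at 1.09 against 11.8 CPM per kb in Gent+Fos OE and at 0.965 against 10.1 CPM per kb in Gent.

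**Figure D2:**
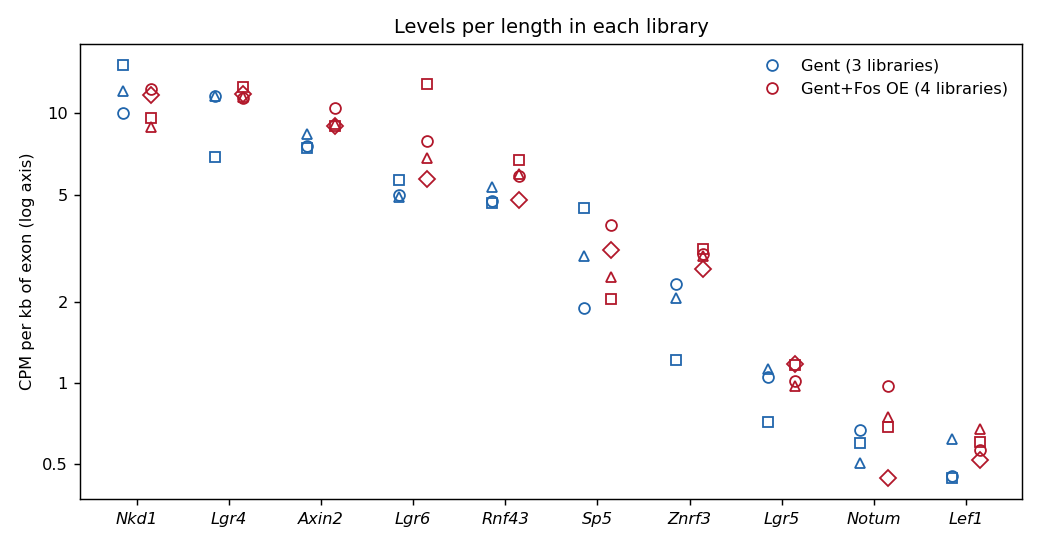
CPM per kb of exon (log axis) of each gene in each library, ordered by the median over 7 libraries, with Gent in blue, Gent+Fos OE in red and symbols for replicates as in the plot of CPM by library. Nkd1 and Lgr4 have medians near 11.6 and Lef1 has 0.567, while within a gene the groups mostly share the same range.

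Of the R-spondin receptors, Lgr6 had the largest fold change, though it did not pass the limits. Lgr6 (ENSMUSG00000042793; mm10 chromosome 1, 134983301 to 135105276) had 54.25, 88.0, 46.7 and 39.3 CPM in Gent+Fos OE replicates 1 to 4 and 34.2, 38.65 and 33.5 CPM in Gent replicates 1 to 3. The groups did not overlap, but Gent+Fos OE replicate 4 lay just above the highest Gent library, and Gent+Fos OE replicate 2 lay far above the rest. The means were 57.1 ± 21.5 CPM (SD, n = 4) and 35.45 ± 2.79 CPM (SD, n = 3). The log2 fold change of Lgr6 was 0.69 (standard error 0.24, 95% interval 0.15 to 1.22, adjusted p = 0.139 from edgeR's test). On mean log2 CPM, the exact permutation test (two-sided) gave p = 0.0571, where 0.0286 is the smallest p that 35 splits allow. Without Gent+Fos OE replicate 2 edgeR gave 0.40 (adjusted p = 0.276), and without Gent replicate 2 it gave 0.75 (adjusted p = 0.141).

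Lgr4, the most broadly expressed of the receptors, was nearly level in all but 1 library. Lgr4 (ENSMUSG00000050199; chromosome 2, 109917647 to 110014257) had 67.15, 73.6, 67.8 and 69.4 CPM in Gent+Fos OE and 68.45, 40.45 and 68.5 CPM in Gent. The 2 other Gent libraries lay within the range of Gent+Fos OE, and only Gent replicate 2 lay below it. Its log2 fold change was 0.23 (standard error 0.18, 95% interval -0.16 to 0.63, adjusted p = 0.423 from edgeR's test), and without Gent replicate 2 it was 0.016 (adjusted p = 0.944).

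Lgr5 (ENSMUSG00000020140; chromosome 10, 115450311 to 115587780) followed the same pattern at a lower level. It had 10.45, 12.03, 10 and 12.08 CPM in Gent+Fos OE and 10.8, 7.37 and 11.6 CPM in Gent, so the groups overlapped. The log2 fold change of Lgr5 was 0.17 (standard error 0.19, 95% interval -0.24 to 0.58, adjusted p = 0.585 from edgeR's test). Its sign changed without Gent replicate 2 (-0.0090) and after a correction that takes out the dependence of each library on gene length (-0.058). The interval for Lgr5 reaches from 0.846-fold to 1.495-fold, so these libraries do not show that Lgr5 was unaltered.

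The make-up of the LGR transcripts overlapped between the groups. Per kilobase, Lgr6 made up 38.9%, 48.4%, 35.3% and 30.7% of the summed LGR level in Gent+Fos OE replicates 1 to 4, and 28.2%, 42.6% and 27.7% in Gent replicates 1 to 3. Only Gent replicate 2, in which Lgr4 was low, reached into the range of Gent+Fos OE. Lgr4 made up 47.2% to 63.0% of the sum with Fos and 51.9% to 65.9% without, and Lgr5 made up 4.42% to 6.37% across all libraries.

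Of the membrane ubiquitin ligases that LGR receptors and R-spondins clear, Znrf3 was separated between the groups and Rnf43 was not, and neither passed the limits. Znrf3 (ENSMUSG00000041961; chromosome 11, 5276324 to 5444847) had 23.8, 24.7, 23.3 and 20.8 CPM in Gent+Fos OE and 18.4, 9.58 and 16.3 CPM in Gent. The groups were fully separated, and Gent replicate 2 was far below the rest. The means were 23.1 ± 1.66 CPM (SD, n = 4) and 14.7 ± 4.59 CPM (SD, n = 3). The log2 fold change of Znrf3 was 0.65 (standard error 0.21, 95% interval 0.20 to 1.10, adjusted p = 0.117 from edgeR's test). The exact permutation test gave p = 0.0286, the smallest possible. The log2 fold change was 0.41 without Gent replicate 2 (adjusted p = 0.106) and 0.84 without Gent replicate 1 (adjusted p = 0.0421). DESeq2 gave Znrf3 an adjusted p of 0.0448, still above the limit.

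Rnf43 (ENSMUSG00000034177; chromosome 11, 87662722 to 87735539) had 38.4, 44.1, 39.0 and 31.3 CPM in Gent+Fos OE and 31.1, 30.5 and 34.96 CPM in Gent. The groups overlapped, with Gent+Fos OE replicate 4 inside the range of Gent. Rnf43 had a log2 fold change of 0.25 (SE 0.14, 95% interval -0.068 to 0.56, adjusted p = 0.297 from edgeR's test), and 0.20 without Gent replicate 2. It was 0.147 with the length trends removed and 0.145 with sample quality weights. Per kilobase, the ratio of Rnf43 to Znrf3 was 1.81 to 2.15 in Gent+Fos OE and 2.04, 3.83 and 2.59 in Gent replicates 1 to 3, so the groups overlapped in this ratio.

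Axin2, which builds the scaffold of the β-catenin destruction complex and is a common reporter of the pathway, showed a small difference with little spread. Axin2 (ENSMUSG00000000142; chromosome 11, 108920349 to 108950783) had 57.6, 49.6, 50.4 and 49.3 CPM in Gent+Fos OE and 41.65, 40.9 and 46.3 CPM in Gent. The groups did not overlap (exact permutation test, p = 0.0286, the smallest possible), and Gent+Fos OE replicate 1 stood above the other 3 libraries of its group. For Axin2, edgeR gave a log2 fold change of 0.27 (SE 0.12, 95% interval 0.0030 to 0.53) and an adjusted p of 0.201. It ran from 0.21 to 0.33 in the 7 fits that leave out 1 library, and in none of them did the unadjusted p stay under 0.05. Without Gent replicate 2 it was 0.23. Its exons share 3.80% of their bases with another gene, Gm11670.

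Nkd1, which binds Dishevelled and dampens the signal, lay the other way. Nkd1 (ENSMUSG00000031661; chromosome 8, 88521354 to 88594884) had 56.1, 43.9, 40.75 and 53.1 CPM in Gent+Fos OE and 45.7, 69.1 and 55.4 CPM in Gent. The groups overlapped widely, and Gent replicate 2 was the highest library. Nkd1 had a log2 fold change of -0.23 (SE 0.17, 95% interval -0.60 to 0.15, adjusted p = 0.413 from edgeR's test), and it was -0.066 without Gent replicate 2.

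Notum encodes a secreted enzyme that strips the lipid from Wnt ligands, and its counts were the lowest of the 10. Notum (ENSMUSG00000042988; chromosome 11, 120653788 to 120661175) had 72, 54, 57 and 30 counts in Gent+Fos OE and 47, 45 and 42 counts in Gent, which is 1.07 to 2.34 CPM and 1.21 to 1.61 CPM. The range of Gent lay inside that of Gent+Fos OE. Notum had a log2 fold change of 0.28 (SE 0.34, 95% interval -0.47 to 1.03, adjusted p = 0.629 from edgeR's test), and 0.28 without Gent replicate 2. With single libraries left out it ran from 0.085 to 0.44. A share of 38.1% of its exonic bases lies in other genes (Myadml2os and Notumos), and reads there were not counted, so its level is uncertain, and the interval of the difference reaches up to 2.04-fold.

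Lef1 and Sp5 encode transcription factors, LEF1 being a partner of β-catenin and SP5 a zinc finger protein induced by it. Lef1 (ENSMUSG00000027985; chromosome 3, 131110471 to 131224356) had 4.98, 5.30, 5.95 and 4.56 CPM in Gent+Fos OE and 3.97, 3.91 and 5.46 CPM in Gent. Only Gent replicate 3 reached into the range of Gent+Fos OE. The log2 fold change of Lef1 was 0.22 (standard error 0.21, 95% interval -0.23 to 0.68, adjusted p = 0.515 from edgeR's test), and it was 0.13 without Gent replicate 2 and 0.031 with the length trends removed. A share of 13.75% of its exonic bases is shared with Lef1os1.

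Sp5 (ENSMUSG00000075304; chromosome 2, 70474923 to 70477729), with both of its TCF/LEF matches shown above, had 8.08, 4.32, 5.19 and 6.52 CPM in Gent+Fos OE and 4.00, 9.39 and 6.21 CPM in Gent. Its Gent libraries spanned a wider range than the 4 libraries of Gent+Fos OE, from the lowest to the highest of the 7. Sp5 had a log2 fold change of -0.12 (SE 0.30, 95% interval -0.78 to 0.54, adjusted p = 0.827 from edgeR's test), and it was 0.23 without Gent replicate 2, so no direction can be given.

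**Figure D3:**
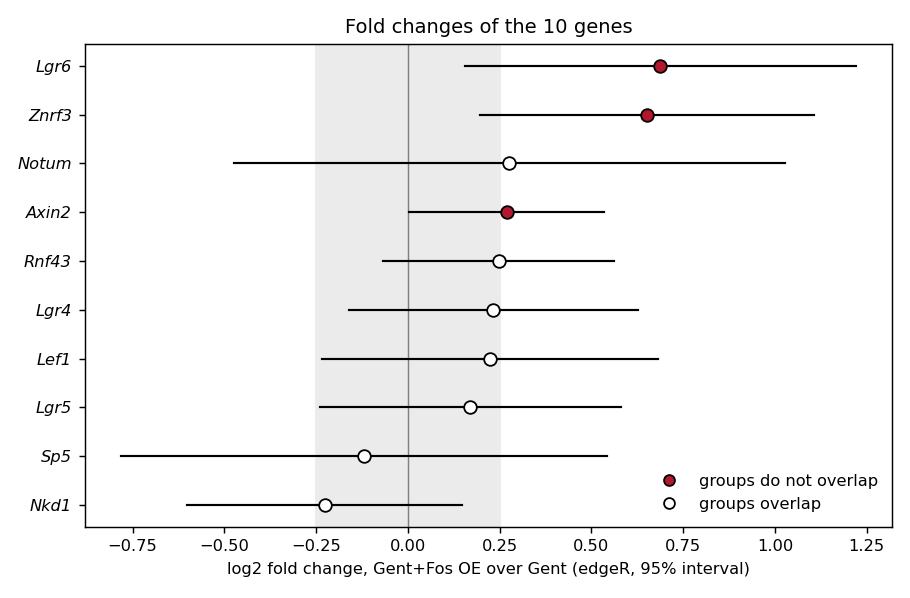
Log2 fold change (Gent+Fos OE over Gent) of each gene from edgeR with its 95% interval; filled points mark the 3 genes whose groups do not overlap, and the grey band spans -0.25 to 0.25. The intervals of Lgr6, Znrf3 and Axin2 lie above 0, that of Axin2 barely, and the other 7 intervals include 0.

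Across the 19 alternative fits, none of the 10 genes was called in any, and the lowest adjusted p of any member was 0.0117, for Znrf3 in limma-voom with sample quality weights. In that fit Lgr6 had an adjusted p of 0.0348. The median log2 fold change of the members was 0.096 in the fit with sample quality weights. Without Gent replicate 2 it was 0.22, and with the length trends removed it was 0.16. In each of these fits, the members with an unadjusted p under 0.05 were Lgr6 and Znrf3 but not Axin2.

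**Figure D4:**
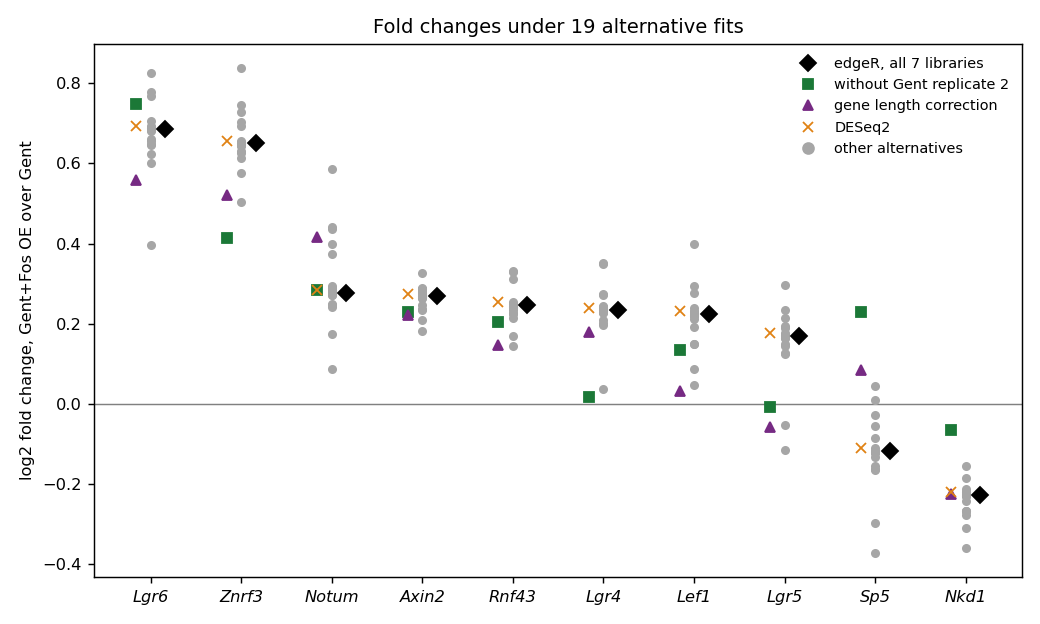
Log2 fold change of each gene (vertical axis) in the edgeR fit to all 7 libraries (black) and in 19 alternative fits, with the fit without Gent replicate 2, the gene length correction and DESeq2 marked. Lgr6, Znrf3, Axin2 and Rnf43 stay above 0.1 in all fits, Nkd1 stays below 0, and Lgr5 and Sp5 fall on both sides of 0.

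The R-spondins, which are the ligands of the LGR receptors, were read beside them. Rspo3 (chromosome 10) had 36.15, 25.6, 27.3 and 22.2 CPM in Gent+Fos OE and 39.15, 51.7 and 41.2 CPM in Gent. All Gent+Fos OE libraries lay below the Gent libraries, with a log2 fold change of -0.66 (standard error 0.18, 95% interval -1.05 to -0.27, adjusted p = 0.0857 from edgeR's test). Without Gent replicate 2 it was -0.53. DESeq2 gave Rspo3 an adjusted p of 0.0206, and limma-voom with sample quality weights called it, with a log2 fold change of -0.59 and an adjusted p of 0.00828. A share of 13.1% of its exonic bases overlaps Gm48159. Rspo2 overlapped between the groups, at 11.9 to 17.0 CPM and 8.81 to 16.9 CPM (log2 fold change 0.16, adjusted p = 0.663 from edgeR's test). Rspo1 (6 to 18 counts per library) and Rspo4 (0 to 6 counts) were too low to be tested.

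In total, 92 other genes of the pathway were listed, 82 were tested, and edgeR called none of them. Of the 82, 19 had an unadjusted edgeR p under 0.05 with higher values in Gent+Fos OE and 5 with lower values, which is 23.2% and 6.1% of them. Over all tested genes the shares were 11.1% higher and 13.4% lower. In either direction, the 24 genes (29.3%, beside 24.5% of all tested genes) became 15 (18.3%, beside 17% of all) without Gent+Fos OE replicate 1, 14 (17.1%, beside 16.8%) without Gent+Fos OE replicate 2 and 17 (20.7%, beside 20.2%) without Gent replicate 2. Without Gent+Fos OE replicates 3 and 4, the shares were 22.2% (beside 17.4% of all) and 27.2% (beside 22%). Without Gent replicates 1 and 3, they were 37.8% (beside 33.3%) and 25.3% (beside 21.4%). DESeq2 called 1 of the pathway genes, Apc, where it called 3.17% of all its genes. The median log2 fold change of the 82 genes was 0.11, and 0.069 without Gent replicate 2.

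The β-catenin gene itself, Ctnnb1, had 980.5 to 1057 CPM in Gent+Fos OE and 911, 549 and 961 CPM in Gent. The groups did not overlap, but without Gent replicate 2 the log2 fold change of 0.35 (adjusted p = 0.255 from edgeR's test) was 0.13. A share of 14.6% of its exonic bases overlaps Ulk4. Among the 18 nuclear factors tested, 14 had fold changes above 0, as did 49.9% of all tested genes. Crebbp, Bcl9 and Tle3 (16.7% of the list, beside 24.5% of all tested genes in either direction and 11.1% higher) had an unadjusted p under 0.05, with log2 fold changes of 0.59, 0.59 and 0.36. With the length trends removed these were 0.25, 0.43 and 0.072, and only Bcl9 of the 3 kept an unadjusted p under 0.05. Tcf7, a partner of β-catenin like Lef1, overlapped between the groups (16.5 to 20.55 CPM and 16.2 to 21.25 CPM).

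In the destruction complex, 10 of 14 genes had fold changes above 0 (49.9% of all tested genes). An unadjusted p under 0.05 was found for 3 of 14 (21.4%, beside 24.5% of all tested genes in either direction). The median of the list was 0.16, and 0.068 with the length trends removed. Apc, a scaffold that holds β-catenin for phosphorylation, had 291, 340, 282 and 253 CPM in Gent+Fos OE and 203, 99.96 and 183 CPM in Gent. The groups did not overlap. For Apc, edgeR gave a log2 fold change of 0.85 (SE 0.22) and an adjusted p of 0.0822, and the fold change was 0.59 without Gent replicate 2 and 0.49 with the length trends removed. Amer2 and Amer1, which bring APC to the membrane, had log2 fold changes of 0.57 and 0.68 (adjusted p = 0.123 and 0.157 from edgeR's test), 0.37 and 0.39 without Gent replicate 2, and 0.33 and 0.54 with the length trends removed. Among the 9 coreceptor and Dishevelled genes, Lrp4 and Ror1 had an unadjusted p under 0.05, with log2 fold changes of 0.46 and 0.51. They are 22.2% of the list, beside 24.5% of all tested genes. Without Gent replicate 2 these were 0.29 and 0.30, and with the length trends removed 0.22 and 0.46. Ror1 lost its unadjusted p under 0.05 in the first of these fits and Lrp4 in the second. The 15 tested inhibitors had a median of 0.0065, with Kremen1 (0.37) higher and Nkd2 (-0.41), a relative of Nkd1, lower at an unadjusted p under 0.05. They are 13.3% of the list, beside 24.5% of all tested genes. Without Gent replicate 2, Kremen1 had 0.30 and Nkd2 -0.35 (adjusted p = 0.266 and 0.286 from edgeR's test). With the length trends removed these were 0.22 and -0.42, and Kremen1 no longer had an unadjusted p under 0.05.

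Of 25 other genes reported as β-catenin targets, 10 had higher and 3 had lower values at an unadjusted edgeR p under 0.05, which is 40% and 12% of them beside 11.1% and 13.4% of all tested genes, and none was called. Ccnd1, the cyclin D1 gene, had 152.5, 279.7, 179 and 149.8 CPM in Gent+Fos OE and 148.8, 61.9 and 94.4 CPM in Gent. The groups were barely separated. For Ccnd1, edgeR gave a log2 fold change of 0.90 (SE 0.30) and an adjusted p of 0.124, and the fold change was 0.64 without Gent replicate 2. Exons of LTO1 overlap 23.4% of those of Ccnd1. Myc, another widely used target, overlapped between the groups (17.2 to 22.5 CPM and 19.8 to 22.55 CPM). Ascl2, a transcription factor of intestinal stem cells, had the lowest fold change of the 25, at 0.857 to 1.71 CPM against 2.56 to 3.42 CPM (log2 fold change -1.14, adjusted p = 0.0904 from edgeR's test). Jag1, a Notch ligand that is also in the list of supporting cell markers, had a log2 fold change of 0.63, Cldn1, a tight junction gene, 0.87, and Zcchc12 -0.60 (adjusted p = 0.109, 0.118 and 0.111 from edgeR's test). Without Gent replicate 2, Jag1 had 0.41 and Zcchc12 -0.37. Jag1 was singled out by the study from these libraries, so its direction is not independent evidence.

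**Figure D5:**
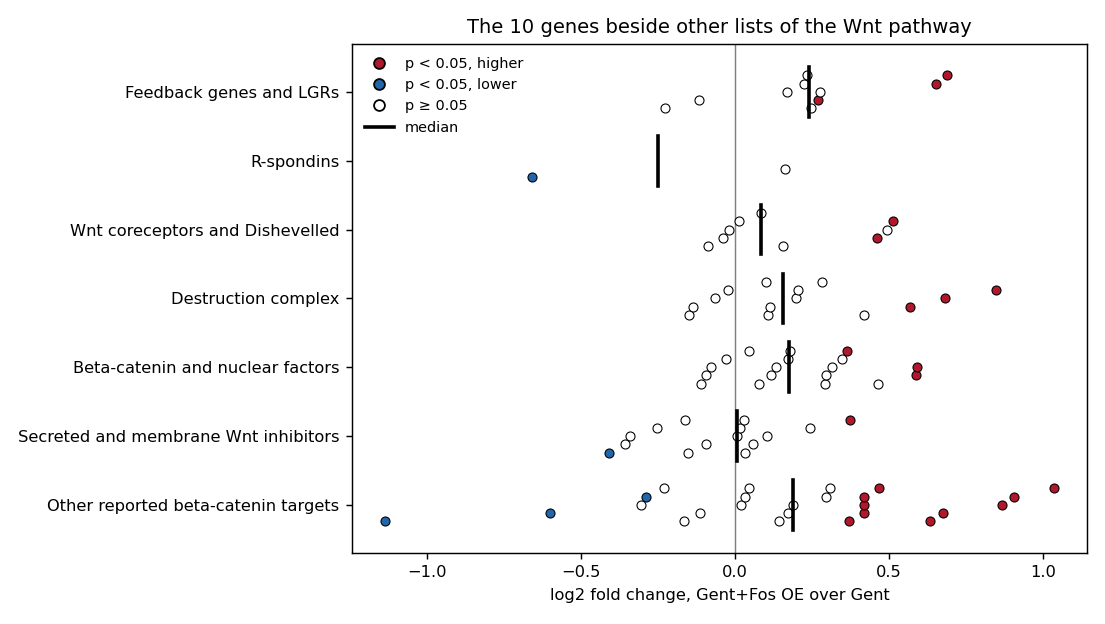
Log2 fold change (horizontal axis) of the tested genes of each list, with filled points for an unadjusted edgeR p under 0.05 and black bars for the median of the list. The medians lie between -0.25 (R-spondins, 2 tested genes) and 0.24 (the 10 feedback and LGR genes), and no point passes the limits on adjusted p.

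Markers of the cell types in the explants were counted in the same way, by unadjusted edgeR p under 0.05, and are to be read beside the 11.1% higher and 13.4% lower of all tested genes (0.134% called higher and 0.28% called lower). Of the 11 tested supporting cell markers, 5 (45.5%) were higher, 1 of which, Otog, was called. The summed level of the list was 2017 to 3052 CPM with Fos and 1470 to 1686 CPM in the Gent libraries. Otog and Tecta, both among the higher markers, made up much of it (means of 800 and 443 CPM). Of the 11, 4 had fold changes below 0. The median log2 fold change was 0.42, and 0.27 without Gent replicate 2. Of 14 hair cell markers, 6 (42.9%) were higher (947 to 1145 CPM and 810 to 963 CPM), and 5 of the 14 had fold changes below 0. Their median log2 fold change was 0.29, with 0.28 without Gent replicate 2 and 0.12 with the length trends removed. Of 9 melanocyte markers, 7 (77.8%) were lower and 3 were called (51.3 to 54.5 CPM and 101 to 138 CPM), and of 10 macrophage markers 7 (70%) were lower, none of them called (1036 to 1696 CPM and 1858 to 2281 CPM). Mesenchymal markers overlapped, at 7728 to 11390 CPM and 9689 to 13330 CPM, with 2 of 11 (18.2%) lower. Counts were close to the shares over all genes for nonsensory epithelial (1 higher and 1 lower of 9), endothelial (1 higher of 7) and neuronal markers (1 higher of 7), and 3 of 8 glial markers (37.5%) were lower. The lower nonsensory marker was Dct, which is also a melanocyte marker and was called. Markers of T cells, in which Lef1 and Tcf7 are also active, were low, with 3 of 8 tested, 1 of these lower, and a summed level of 16.66 to 36.04 CPM across all libraries. In pooled explants, fewer cells of a type and less RNA per cell cannot be told apart. The part of these cell types in the values of Lgr6, Znrf3, Axin2 and Rspo3 was not tested.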

How the data were processed

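Paired-end reads of 7 libraries were trimmed, aligned and counted by the authors. What was deposited are read counts for each gene, as whole numbers with no normalization. Per the file headers, featureCounts 2.0.6 was used with an mm10 annotation, each read of a pair was counted by itself, strand was ignored, and reads with several places or genes were left out. The submitters' processing notes list Trim Galore 0.6.10, HISAT2 2.2.1 and mm10, whereas the study's methods name mm39, so coordinates are those of the files. Those methods also state 3 replicates per condition, whereas the labels give 4 Gent+Fos OE and 3 Gent libraries, all of which were used. Symbols came from GENCODE vM39 by Ensembl ID (31674 of 32285 genes), and all 10 members lay at the same place in RefSeq on GRCm38.p6.

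The analysis used R 4.3.3 and edgeR 4.0.16 (filterByExpr, TMM, quasi-likelihood F-test, no covariate), with limma 3.58.1 and DESeq2 1.42.0 (total of 10 counts or more) as alternatives, and plotted in Python 3.11.15 with matplotlib 3.10.9. Limits on adjusted p (0.01) and log2 fold change (0.25) follow the study's methods. Exact permutation tests used log2(CPM + 0.5), and for members whose groups overlapped they gave p from 0.143 to 0.829. Intervals are 95% intervals of the edgeR log2 fold change, built from its standard error, which reflects the spread between libraries. The edgeR, DESeq2 and limma-voom fits were tested on simulated data. Members and lists were chosen with earlier results of these data known. Of each pathway list, genes with an unadjusted p under 0.05 are named (the 4 lowest p where there were more), with Ctnnb1, Tcf7, Rspo1 to Rspo4, Ccnd1 and Myc in any case. Single-cell and CUT&Tag sequencing of the study were not analysed here.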

Additional observations from a re-analysis of the deposited data

Results flagged for a closer look

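In the group of 4 libraries, Gent+Fos OE, the gap of the highest or lowest library to its neighbour was compared with the whole range for 31 genes. A library stood apart in 2 genes, where chance gives about 5% of genes. For Axin2, replicate 1 was measured at 57.58 CPM and the rest of the group at 49.34 to 50.44 CPM. For Fos, replicate 3 was measured at 167.0 CPM and the rest at 148.8 to 151.1 CPM.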

How the results depend on the processing

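No member was called in any of the 19 alternative fits, and of the 190 values of members under them, 182 kept the sign of the edgeR fit. The reversed values were those of Lgr5 and Sp5. Lgr5 had a log2 fold change of -0.055 with sample quality weights, -0.058 with the gene length correction and -0.12 with the replicate block and that correction, and Sp5 had 0.085 and 0.043 in the latter 2 fits. With single libraries left out, Lgr5 ran from -0.0090 to 0.30, Sp5 from -0.37 to 0.23, Tcf7 from -0.035 to 0.16 and Rspo2 from -0.067 to 0.37. Rspo2 was -0.12 with sample quality weights, and Myc 0.0073 with the length correction.

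Over all genes, 23 were called higher and 48 lower. The counts were 273 and 327 in DESeq2, 531 and 430 in limma-voom with sample quality weights, 63 and 141 without a filter, and 38 and 74 with the length correction. With single libraries left out they ran from 2 to 45 higher (lowest without Gent+Fos OE replicate 3, highest without Gent replicate 2) and from 3 to 93 lower. Of the pathway genes, DESeq2 called 1 of 90 and limma-voom with sample quality weights called 7 of 82, among them Apc, Ccnd1 and Rspo3. Over all genes, DESeq2 called 3.17%, and the fit with sample quality weights called 531 higher and 430 lower of 17155. The replicate block gave 0 and 0 calls in edgeR (1697 and 1703 at an unadjusted p under 0.05), and 18 and 31 with the length correction. The labels do not say whether same-numbered libraries are paired. Across genes, deviations of same-numbered libraries correlated at 0.074, -0.045 and 0.032, and those of different-numbered libraries at -0.097 to 0.064. No sign of pairing was seen, but so few libraries cannot settle it. The cause of the differences in counts between fits was not tested. Leaving out Gent replicate 3 left Znrf3 as the 1 member with an unadjusted p under 0.05.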
